A study of Mus musculus with 12 samples.

Results

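The C/EBP transcription factors were followed through 4 genes, Cebpa, Cebpb, Cebpd and Cebpg, by taking every probe set that the array's annotation assigns to one of these symbols. The rule found 8 of the 22690 probe sets on the array: 1 for Cebpa, 2 each for Cebpb and Cebpd, and 3 for Cebpg. They stand for 4 of the 12394 genes named on the array. Cebpe and Cebpz were not analysed here. The study measured total RNA from lungs of CD-1/ICR mice on 12 Affymetrix Murine Genome 430A arrays, which report the brightness of short probes that bind labelled RNA. It asked what 2 h of injurious mechanical ventilation changes in the lung and how that depends on Nrf2, the transcription factor encoded by Nfe2l2 that switches on antioxidant genes. The groups were Nrf2-deficient (Nrf2-/-, KO) mice ventilated at a high tidal volume of 30 ml/kg (KO HVT), KO mice breathing spontaneously for 2 h (KO SpV), wild-type (Nrf2+/+, WT) mice ventilated in the same way (WT HVT) and WT mice breathing spontaneously (WT SpV), with 3 arrays in each. All mice shared the CD-1/ICR strain, and the labels give no age or sex. RNA came from the left lung lobe on 11 arrays and from the whole lung on WT SpV array 1.

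C/EBP proteins are basic leucine zipper factors that bind DNA as dimers with each other and with related factors. C/EBPα, the product of Cebpa, drives differentiation in liver, fat, neutrophils and macrophages, and in the lung it is known for its part in the maturation of alveolar type II and airway cells. C/EBPβ and C/EBPδ are the members known to be induced in acute inflammation, downstream of IL-6 and IL-1, and they bind promoters of cytokine and acute phase genes. C/EBPγ lacks a strong activation domain and pairs with other zipper proteins, among them ATF4 of the amino acid response.

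The sequence before the start of the genes is shown as background, with a few short motifs marked. RefSeq (GRCm38.p6) held a start site for 3 of the 4 members, not for Cebpd, and the 250 bases upstream of each are printed 5′ to 3′ on the gene's strand. Capitals mark a TATA box (TATAAA, searched on the gene's strand only) in Cebpa, CRE cores (TGACG, a motif of CREB and ATF factors, on either strand) in Cebpb, and CCAAT boxes (CCAAT on either strand, read here as ATTGG) in Cebpg.
Cebpa, chr7:35119043-35119292, plus strand: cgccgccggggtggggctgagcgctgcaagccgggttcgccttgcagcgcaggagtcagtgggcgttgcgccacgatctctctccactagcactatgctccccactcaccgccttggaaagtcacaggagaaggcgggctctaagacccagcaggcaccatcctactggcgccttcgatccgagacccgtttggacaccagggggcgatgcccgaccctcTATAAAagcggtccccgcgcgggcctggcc
Cebpb, chr2:167688665-167688914, plus strand: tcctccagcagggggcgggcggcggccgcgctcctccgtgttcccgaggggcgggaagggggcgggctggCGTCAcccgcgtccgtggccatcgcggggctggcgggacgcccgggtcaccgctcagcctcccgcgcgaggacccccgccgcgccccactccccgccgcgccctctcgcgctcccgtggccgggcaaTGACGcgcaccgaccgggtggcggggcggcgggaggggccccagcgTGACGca
Cebpg, chr7:35056567-35056816, minus strand: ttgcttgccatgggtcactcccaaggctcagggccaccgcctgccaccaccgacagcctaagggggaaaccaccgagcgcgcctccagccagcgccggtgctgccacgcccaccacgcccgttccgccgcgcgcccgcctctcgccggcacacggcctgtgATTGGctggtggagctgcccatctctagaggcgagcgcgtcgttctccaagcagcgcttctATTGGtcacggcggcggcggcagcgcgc

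The TATA box of Cebpa lay 30 to 25 bases before the start, and 7.59% of the 32851 promoter windows in the table held that motif. Cebpb had 3 CRE cores, at 180 to 176, 53 to 49 and 7 to 3 bases before the start, and 17.8% of windows held at least 1. Cebpg had 2 CCAAT boxes, at 89 to 85 and 28 to 24 bases before the start, against 33.8% of windows with at least 1. An AP-1 site (TGANTCA, in 6.75% of windows), the core of the antioxidant response element bound by Nrf2 (TGACNNNGC, in 10.2%) and a C/EBP site (TTGCNNAA, in 9.56%) were searched on both strands and were not in these 3 windows. The CRE core and the antioxidant core share their first 4 letters, so 1 stretch could match both. These matches describe letters and say nothing of binding.

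Values below are normalized probe set signals, and differences are on the log2 scale of signal plus a pseudocount of 16, with standard errors from limma. The arrays differed in quality before normalization. KO SpV array 1 stood apart, with a trimmed mean signal of 73.9 and a beta-actin 3′ to 5′ ratio, which rises as RNA degrades, of 8.76, against 182 to 469 and 1.39 to 3.10 on the other 11 arrays. The KO HVT arrays were the next dimmest, between 182 and 247, with actin ratios of 2.21 to 3.10, against 279 to 439 and 1.53 to 1.99 on the WT HVT arrays. Nfe2l2 separated the genotypes on every array, from 36.2 to 61.3 on the 6 KO arrays and from 2144.3 to 3298.2 on the 6 WT arrays. Alveolar type II markers had summed signals of 63472 to 92677 on all 12 arrays, and liver markers 130 to 409. In whole tissue, fewer cells of a type and less RNA per cell cannot be told apart.

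Cebpa had lower signal in the ventilated lungs of both genotypes. The gene lies on chromosome 7 from 35119293 to 35121928, and its probe set is 1418982_at. Its signal was 2016, 1614 and 1911 on the KO HVT arrays, against 2899, 3161 and 3444 on the KO SpV arrays. It was 2483, 2491 and 2312 on the WT HVT arrays, against 3398, 3051 and 2833 on the WT SpV arrays. The 6 HVT arrays were all below the 6 SpV arrays, a separation that 0.514% of the 9333 genes tested shared in that direction. Taken by genotype, 7.53% of genes were lower with no overlap in KO, 9.15% in WT and 1.41% in both, as Cebpa was. The ventilated groups did not overlap each other either, with KO HVT below WT HVT for Cebpa as for 12.9% of genes. The group means were in the order KO SpV (3168.1 ± 272.2), WT SpV (3094.0 ± 284.8), WT HVT (2428.5 ± 101.1) and KO HVT (1846.8 ± 208.7, SD, n = 3 each), and of neighbours in that order only the SpV groups overlapped.

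On the log2 scale, Cebpa differed by -0.78 ± 0.13 (SE) with ventilation in KO and by -0.34 ± 0.13 in WT. Neither passed the test across all genes (limma, adjusted p = 0.202 and 0.524), and in the KO comparison 0% of genes passed, while 10.6% had an unadjusted p under 0.05. Averaged over the genotypes the difference with ventilation was -0.56 ± 0.09, or 0.678-fold, at an adjusted p of 0.0511, just outside the threshold of 0.05 that 0.107% of genes passed. Without KO SpV array 1, Cebpa fell by 0.84 ± 0.14 in KO (adjusted p = 0.00706) and by 0.59 ± 0.09 on average (adjusted p = 0.0058). In those fits 6.38% and 6.93% of all genes passed as well. KO HVT against WT HVT gave -0.40 ± 0.13 (adjusted p = 0.226), and KO SpV against WT SpV gave 0.03 ± 0.13, with a 95% interval from -0.26 to 0.33. The difference between the 2 ventilation effects, KO minus WT, was -0.43 ± 0.19 (adjusted p = 1.0), so the larger value in KO was not shown to differ from that in WT.

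**Figure D1:**
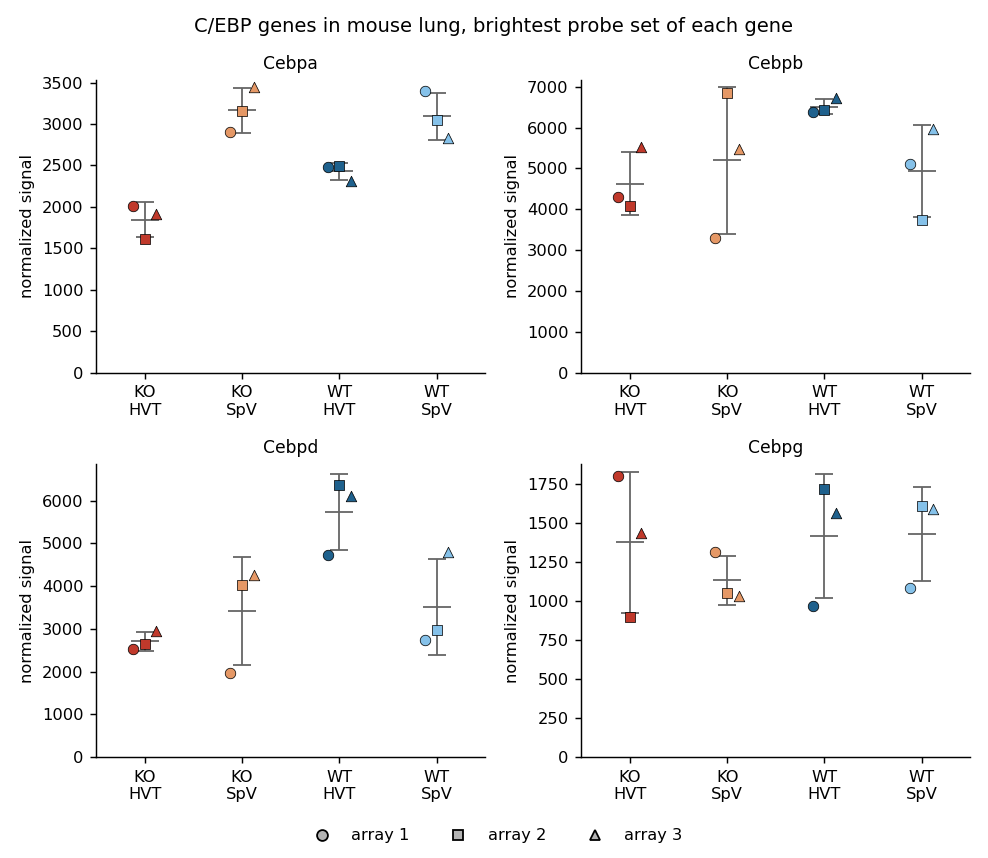
Normalized signal (vertical axes from 0) of the highest-signal probe set of each C/EBP gene on the 12 arrays, grouped by genotype and breathing; points are arrays, wide bars group means and whiskers 1 SD (n = 3). Cebpa is lower on all 6 HVT arrays, and Cebpd is between 2536 and 2959 on the KO HVT arrays, against 4725 to 6377 on the WT HVT arrays.

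Cebpb had higher signal on the ventilated than on the spontaneously breathing arrays of WT mice, with no overlap, and the KO groups overlapped. Neither difference was called, and the ventilation effect was not shown to differ between the genotypes. Cebpb lies on chromosome 2 from 167688915 to 167690432 and is read by 1418901_at and 1427844_a_at, of which the first stands for the gene. Its signal was 4295, 4079 and 5515 on the KO HVT arrays, against 3285, 6838 and 5467 on the KO SpV arrays. The KO SpV arrays spanned the whole range of the gene, with array 1 at the bottom and array 2 at the top. The WT HVT arrays were tightly grouped at 6377, 6437 and 6725, against 5105, 3734 and 5973 on the WT SpV arrays. All 3 KO HVT arrays were below all 3 WT HVT arrays, as they were for Cebpa and for 12.9% of genes. The WT HVT arrays were all above the WT SpV arrays, a separation found for 7.9% of genes.

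The fitted differences of Cebpb with ventilation were -0.12 ± 0.24 in KO and 0.42 ± 0.24 in WT (adjusted p = 0.898 and 0.757). The difference between these effects was -0.54 ± 0.34 (adjusted p = 1.0), and 0% of genes passed that test, while 456 of 9333, or 4.89%, had an unadjusted p under 0.05. KO HVT against WT HVT gave -0.50 ± 0.24, or 0.706-fold (adjusted p = 0.407), where 0.739% of genes passed. The order of the group means was WT HVT (6513.0 ± 186.1), KO SpV (5197.0 ± 1791.9), WT SpV (4937.2 ± 1128.8) and KO HVT (4629.8 ± 774.2), and every pair of neighbours overlapped. Without KO SpV array 1 the difference with ventilation in KO was -0.41 ± 0.19 (adjusted p = 0.202), and the difference between the genotypes' effects was -0.84 ± 0.25 (adjusted p = 0.176).

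The second probe set of Cebpb gave the same pattern with wider differences. 1427844_a_at read 307, 379 and 413 on the KO HVT arrays, against 345, 917 and 679 on the KO SpV arrays, and 634, 769 and 637 on the WT HVT arrays, against 401, 391 and 540 on the WT SpV arrays. Fitted among all 15855 probe sets, the difference with ventilation was -0.70 in KO and 0.61 in WT, and KO HVT against WT HVT gave -0.87, none of them called (adjusted p = 0.398, 0.701 and 0.233). Over the 12 arrays its log2 signal correlated with that of 1418901_at at r = 0.84, as a description.

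Cebpd showed the largest fitted difference between the genotypes among the 4 genes, in the ventilated lungs. It lies on chromosome 16 from 15887286 to 15889545, and 1423233_at stands for it. Its signal was 2536, 2640 and 2959 on the KO HVT arrays, against 1964, 4022 and 4264 on the KO SpV arrays. It was 4725, 6377 and 6098 on the WT HVT arrays, against 2749, 2974 and 4804 on the WT SpV arrays. The KO HVT arrays were all below the WT HVT arrays, as for 12.9% of genes, while each HVT group overlapped its own SpV group. WT HVT had the highest mean (5733.2 ± 884.6), followed by WT SpV (3509.0 ± 1126.8), KO SpV (3416.9 ± 1264.0) and KO HVT (2711.9 ± 220.6), and each pair of neighbours overlapped.

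In the fit to all arrays Cebpd differed by -1.07 ± 0.28 between KO HVT and WT HVT, or 0.477-fold, at an adjusted p of 0.131. With ventilation it differed by -0.25 ± 0.28 in KO and by 0.74 ± 0.28 in WT (adjusted p = 0.783 and 0.504), where 0.075% of genes passed in WT. The difference between these effects was -0.99 ± 0.40 (adjusted p = 1.0). Between the genotypes at rest it was -0.07 ± 0.28, with a 95% interval from -0.68 to 0.54, and 0.332% of genes passed there. Without KO SpV array 1 Cebpd was called lower in KO HVT than in WT HVT, at the same -1.07 with an SE of 0.19 in place of 0.28 (adjusted p = 0.00858). The difference between the ventilation effects then passed too, at -1.35 ± 0.28 (adjusted p = 0.0488). Of all genes, 5.07% and 0.868% passed in those fits. With all arrays and the replicate number as a block, Cebpd was also called lower in KO HVT than in WT HVT. That fit called 65 genes there, against 69 without the block. The labels do not state that the replicate numbers pair the arrays.

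**Figure D2:**
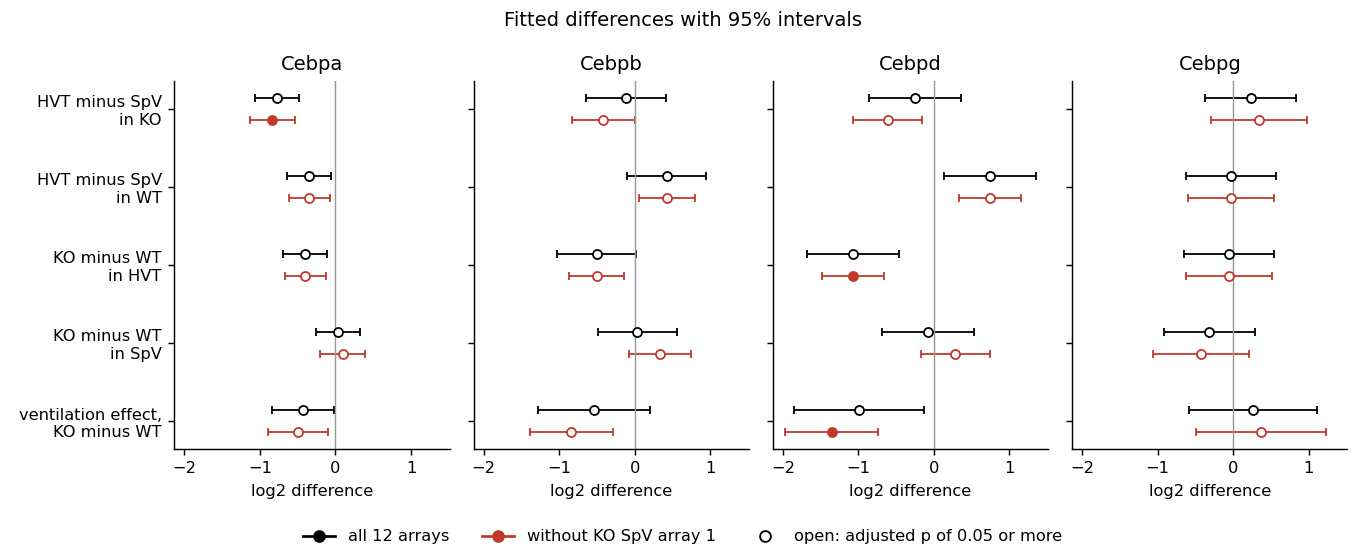
Log2 differences (horizontal axes) of the 4 C/EBP genes in the 5 comparisons of groups, with 95% intervals from limma; black is the fit to all 12 arrays, red the fit without KO SpV array 1, and filled points have an adjusted p under 0.05. No black point is filled, and the filled red ones are Cebpa with ventilation in KO, Cebpd in KO HVT against WT HVT, and Cebpd in the difference between ventilation effects.

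Cebpb and Cebpd varied together across arrays, and over all 12 arrays both followed array quality. Their log2 signals correlated at r = 0.86 over the 12 arrays and at 0.80 without KO SpV array 1, whereas the other 5 pairs of members had r between -0.09 and 0.15. The arrays share the 4 groups, so these values are descriptions. With log2 array brightness before normalization, r was 0.73 for Cebpb and 0.78 for Cebpd, against 0.29 for Cebpa. With the log2 actin ratio it was -0.73, -0.76 and -0.10 for Cebpb, Cebpd and Cebpa. These correlations with quality include KO SpV array 1, the extreme array in both measures, and were not computed without it. In a fit with the actin ratio as covariate, KO HVT against WT HVT gave -0.78 ± 0.20 for Cebpd (adjusted p = 0.0842) and -0.29 ± 0.20 for Cebpb (adjusted p = 0.549). With array brightness as the covariate the values were -0.69 ± 0.18 for Cebpd and -0.22 ± 0.19 for Cebpb. Cebpa moved little under either covariate, and its difference with ventilation in KO was then -0.77 ± 0.13 with each (adjusted p = 0.0303 and 0.0406). The share of all genes passing in these covariate fits was not counted. The KO HVT and WT HVT arrays did not overlap in actin ratio (2.21 to 3.10 against 1.53 to 1.99) or in brightness (182 to 247 against 279 to 439). Quality and genotype therefore cannot be told apart in that comparison, with or without a covariate. How far RNA quality enters the Cebpb and Cebpd differences was not tested.

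**Figure D3:**
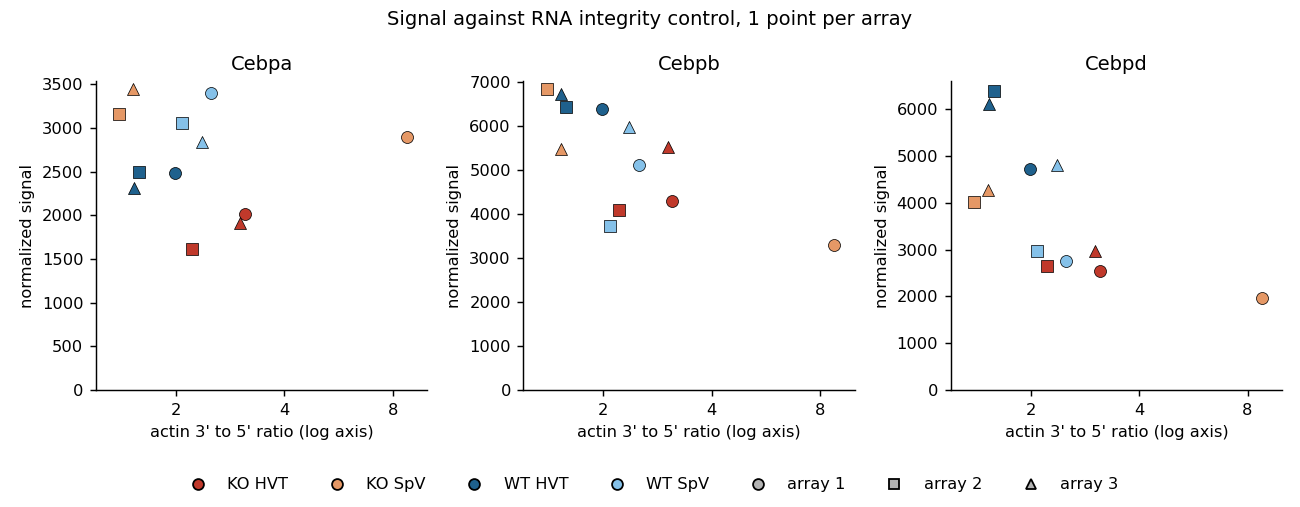
Normalized signal of Cebpa, Cebpb and Cebpd (vertical axes from 0) against the beta-actin 3′ to 5′ ratio of the same array (log axis), 1 point per array, coloured by group. KO SpV array 1 sits alone at a ratio of 8.76, where Cebpb and Cebpd have their lowest signals and Cebpa is within its SpV range.

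Cebpg, the partner of ATF4, showed no separation of groups. It lies on chromosome 7 from 35046422 to 35056566, on the same chromosome as Cebpa, and 1425262_at stands for it. Its signal was 1800, 900 and 1437 on the KO HVT arrays, against 1316, 1051 and 1036 on the KO SpV arrays, and 969, 1721 and 1564 on the WT HVT arrays, against 1083, 1613 and 1592 on the WT SpV arrays. The group means ran from 1134.4 ± 157.2 in KO SpV through 1379.2 ± 452.5 in KO HVT and 1418.1 ± 396.7 in WT HVT to 1429.6 ± 300.1 in WT SpV, and all groups overlapped. The difference with ventilation was 0.23 ± 0.28 in KO and -0.03 ± 0.28 in WT, with a 95% interval in WT from -0.63 to 0.57. KO SpV against WT SpV gave -0.32 ± 0.28 (adjusted p = 0.653) and KO HVT against WT HVT -0.05 ± 0.28 (adjusted p = 0.950).

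The remaining probe sets of Cebpd and Cebpg did not track the ones that stand for these genes. 1456605_at, for Cebpd, read 178, 206 and 273 on the KO HVT arrays, against 121, 137 and 153 on the KO SpV arrays, and 181, 142 and 208 on the WT HVT arrays, against 176, 189 and 156 on the WT SpV arrays. Its KO HVT arrays were all above its KO SpV arrays, as for 6.76% of genes, in the direction opposite to the mean of 1423233_at, and r between these probe sets was -0.05. 1425261_at, for Cebpg, ranged from 309 to 882 and 1451639_at from 150 to 309, and r among the 3 probe sets of Cebpg lay between -0.29 and 0.16. None of these was called in any of the 7 contrasts when all 15855 probe sets were tested. The shares of probe sets called there were 0% for ventilation in KO, 0.0252% for ventilation in WT, 0.656% for KO HVT against WT HVT, 0.505% for KO SpV against WT SpV, 0% for the difference between ventilation effects, and 0.126% and 3.27% for ventilation and genotype averaged. The statements on Cebpd and Cebpg above therefore rest on 1 probe set each.

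**Figure D4:**
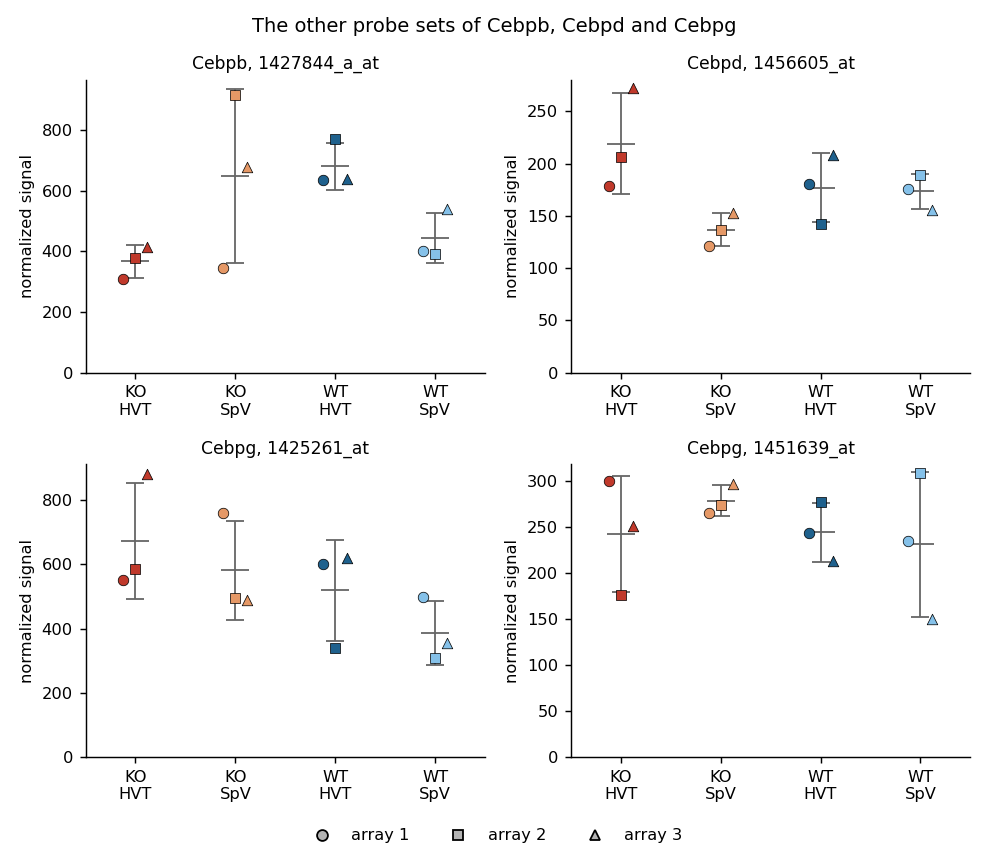
Normalized signal (vertical axes from 0) of the other probe sets of Cebpb, Cebpd and Cebpg on the 12 arrays; points are arrays, wide bars group means and whiskers 1 SD (n = 3). 1427844_a_at repeats the order of groups seen for Cebpb, with WT HVT above WT SpV and KO HVT, whereas 1456605_at is highest in KO HVT at 178 to 273.

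Across the family, 0 of the 4 genes were called in any of the 7 contrasts in the fit of the 4 group means alone to all 12 arrays. The shares of all genes called were 0% for ventilation in KO, 0.075% for ventilation in WT, 0.739% for KO HVT against WT HVT, 0.332% for KO SpV against WT SpV, 0% for the difference between ventilation effects, 0.107% for ventilation averaged over genotypes and 3.73% for genotype averaged over breathing. Ddit3, which encodes CHOP, a relative that blocks C/EBP binding in stressed cells, was not called either. It had 247.6, 192.6 and 214.0 on the KO HVT arrays, against 251.3, 576.5 and 453.0 on the KO SpV arrays, a log2 difference of -0.85 ± 0.38 (adjusted p = 0.449). On the WT HVT arrays it had 156.9, 287.6 and 178.6, against 126.3, 400.0 and 230.7 on the WT SpV arrays (-0.17 ± 0.38). The KO HVT arrays were all below the KO SpV arrays, with 247.6 against 251.3 at the closest pair, a separation found for 7.53% of genes, and the WT groups overlapped.

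Genes upstream of Cebpb and Cebpd, the IL-6, IL-1 and STAT3 axis, had 15 of 19 listed members tested, and 0 were called in any contrast with all arrays. Of the 15, 4 were higher and 11 lower with ventilation in KO, and 11 were higher and 4 lower in WT, with medians of -0.16 and 0.24 against all-gene medians of 0.00 and -0.04. Socs3, the feedback inhibitor of IL-6 signalling, had a mean signal of 1370.8 ± 692.5 in KO HVT, 2793.8 ± 1428.4 in KO SpV, 4035.7 ± 1826.5 in WT HVT and 834.3 ± 29.2 in WT SpV. Its difference with ventilation was 2.15 ± 0.42 in WT (adjusted p = 0.160), and the KO minus WT difference of that effect was -3.19 ± 0.59 (adjusted p = 0.256). Il1b, the cytokine interleukin-1β, averaged 238.9 ± 33.0 in KO HVT, against 846.6 ± 375.3 in KO SpV (-1.65 ± 0.44, adjusted p = 0.244). Without KO SpV array 1 the counts of called members were 4 lower in KO and 1 higher in WT, where 6.38% and 0.461% of all genes passed. Socs3 was then called in WT (adjusted p = 0.0417) and in the difference between ventilation effects (-3.41, adjusted p = 0.0300), and Il1b in KO (-2.08, adjusted p = 0.0127).

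Among 17 tested regulators and partners of C/EBP proteins, of 21 listed, 0 were called with ventilation in KO and 2 rose in WT. Of all genes, 0% passed in KO and 0.075% in WT. Maff, a small MAF protein that pairs with Nrf2 and other zipper factors, averaged 621.0 ± 124.5 in KO HVT, against 428.3 ± 32.6 in KO SpV. In WT HVT it averaged 1193.6 ± 135.0, against 213.0 ± 66.2 in WT SpV, a rise of 2.44 ± 0.22 (adjusted p = 0.00089). Fos, a subunit of AP-1, averaged 1826.8 ± 692.1 in KO HVT, against 2977.2 ± 1885.2 in KO SpV. In WT HVT it averaged 4860.5 ± 1081.9, against 886.6 ± 101.3 in WT SpV, a rise of 2.42 ± 0.37 (adjusted p = 0.0299). The KO minus WT difference of the ventilation effect was -1.94 ± 0.32 for Maff and -3.01 ± 0.52 for Fos (adjusted p = 0.201 and 0.221), and both passed without KO SpV array 1 (adjusted p = 0.0220 and 0.0139). Trib2, a pseudokinase that promotes degradation of C/EBPα, fell by 0.70 ± 0.17 with Nrf2 loss averaged over breathing (adjusted p = 0.0395). Its means were 1494.1 ± 160.1 in KO HVT and 1274.9 ± 384.6 in KO SpV, against 2291.8 ± 383.8 in WT HVT and 2179.1 ± 486.1 in WT SpV. The list's medians were 0.03 with ventilation in KO and 0.20 in WT.

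Of the inflammatory and acute phase targets, 11 of 18 were tested, and 4 of the 11 were higher with ventilation in KO (median -0.20) and 10 of the 11 in WT (median 0.48). Within each genotype 0 were called with all arrays. Ptgs2, which encodes cyclooxygenase-2, rose in the average over genotypes by 2.69 ± 0.44 (adjusted p = 0.0438). It averaged 2510.9 ± 1446.2 in KO HVT, against 430.0 ± 228.9 in KO SpV, and 2506.5 ± 1184.2 in WT HVT, against 365.9 ± 277.2 in WT SpV. The KO HVT and WT HVT means of Ptgs2 differed by less than either SD. Il6 gave 2.45 ± 0.78 with ventilation in WT (adjusted p = 0.394). Its signal was 63.99 to 446.2 on the WT HVT arrays, against 14.2 to 34.8 on the WT SpV arrays. In KO it was 2.05 to 170.0 on the HVT arrays, against 39.4 to 87.4 on the SpV arrays, and these overlapped. The WT SpV signals of Il6 were close to the pseudocount of 16. The size of its WT difference therefore depends on that setting.

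Myeloid targets, with 14 of 19 tested, had medians of -0.72 with ventilation in KO and -0.14 in WT, and 0 were called in either. S100a8, a neutrophil calcium-binding protein, averaged 852.4 ± 79.9 in KO HVT, against 5934.4 ± 4281.9 in KO SpV (-2.50 ± 0.47, adjusted p = 0.202). Without KO SpV array 1, 9 of the 14 were called lower with ventilation in KO, where 6.38% of all genes passed in either direction. Between the ventilated groups 10 of the 14 myeloid targets were lower and 4 higher in KO HVT than in WT HVT, with a median of -0.43. Ltf, lactoferrin, went against that median and was the 1 myeloid target called there, where 0.739% of all genes passed. It was higher in KO HVT than in WT HVT by 2.80 ± 0.41 (adjusted p = 0.00962), at 2427.8 ± 1453.5 in KO HVT and 320.7 ± 159.4 in WT HVT. The summed signal of 9 neutrophil markers, of 10 listed, was 4028 to 6248 in KO HVT, against 6748 to 23132 in KO SpV, and 4171 to 8946 in WT HVT, against 5809 to 8343 in WT SpV. Several of these markers are also in the myeloid list, and their part in the values of Cebpa, Cebpb and Cebpd was not tested.

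Lung epithelial targets, 13 of 15 tested, had medians of -0.06 with ventilation in KO and -0.15 in WT, and 0 were called in either. Aqp5, the water channel of alveolar type I cells, was the 1 member called in any contrast with all arrays. It fell by 0.53 ± 0.13 with Nrf2 loss averaged over breathing (adjusted p = 0.0499), at 1606.1 ± 316.7 in KO HVT and 2615.1 ± 291.8 in KO SpV, against 2867.3 ± 453.0 in WT HVT and 3079.1 ± 612.4 in WT SpV. Of all genes, 3.73% passed in that average. The summed signal of 6 alveolar type I markers was 14559 to 19654 in KO HVT, against 27786 to 40175 in WT HVT, and that of 8 endothelial markers was 5839 to 7727 in KO HVT, against 9699 to 15646 in WT HVT. The sum of 8 macrophage markers was 11901 to 16466 in KO HVT, against 18483 to 21186 in WT HVT. Lyz2, which made up much of that sum, averaged 8766.5 ± 1520.6 in KO HVT and 13083.5 ± 1655.5 in WT HVT. By log2 difference 6 of the 8 were lower and 2 higher in KO HVT, with a median of -0.21. The sum of 5 club cell markers was instead higher in KO HVT, at 91015 to 103291, against 69738 to 80285 in WT HVT. All 5 markers were higher there, with a median log2 difference of 0.14. The 2 called were Bpifa1 and Scgb3a1, where 0.739% of all genes passed. Cebpa, Cebpb and Cebpd had their lowest means in KO HVT. Sums of alveolar type II markers overlapped, at 69194 to 77274 in KO HVT and 72825 to 82649 in WT HVT. Of the 7 summed, 2 were higher and 5 lower in KO HVT, with a median log2 difference of -0.095. On KO SpV array 1, the array with the highest actin ratio, the type I, endothelial and macrophage sums were 14735, 6106 and 10027. On KO SpV arrays 2 and 3 they were 35998 and 32240, 13974 and 11736, and 25385 and 22171. The club cell sum was 90275 on KO SpV array 1, against 88508 and 87815. The part of RNA quality in these sums, and of the cell types in the C/EBP values, was not tested.

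The amino acid response genes, 13 of 14 tested, had medians of 0.30 with ventilation in KO and 0.45 in WT, and 8 and 12 of the 13 were higher. None of the 13 was called by limma in any contrast with all arrays. For ventilation in WT, 7 of the 9333 genes were called and 744, or 7.97%, had an unadjusted p under 0.05. Atf4, the factor that pairs with C/EBPγ, averaged 3972.6 ± 258.3 in KO HVT, against 3242.4 ± 526.4 in KO SpV, and 3847.1 ± 440.4 in WT HVT, against 2349.4 ± 109.9 in WT SpV. Its difference was 0.70 ± 0.14 in WT (adjusted p = 0.160) and 0.50 ± 0.10 on average (adjusted p = 0.0717), while Cebpg gave 0.10 ± 0.19 on average (adjusted p = 0.815). Without KO SpV array 1, limma called 5 of the 13 higher in averaged ventilation, where 6.93% of all genes passed. Atf4 was among them (adjusted p = 0.00568), and Cebpg was not called (adjusted p = 0.669). Atf4 was then also called in WT (adjusted p = 0.0237), where 0.461% of all genes passed.

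Of 13 glucocorticoid response genes, all tested, 0 were called with ventilation in KO and 1 in WT, where 0% and 0.075% of genes passed. The medians were 0.03 in KO and 0.62 in WT. The called gene was Mt1, a metal-binding metallothionein, which rose by 2.25 ± 0.25 in WT (adjusted p = 0.00495). Mt1 was also higher in KO SpV than in WT SpV, by 1.92 ± 0.25 (adjusted p = 0.00584), at 5372.3 ± 1598.0 in KO SpV and 1387.1 ± 299.9 in WT SpV. Of the fat targets, 6 of 13 were tested and 0 were called with all arrays, with medians of 0.32 in KO and -0.10 in WT.

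**Figure D5:**
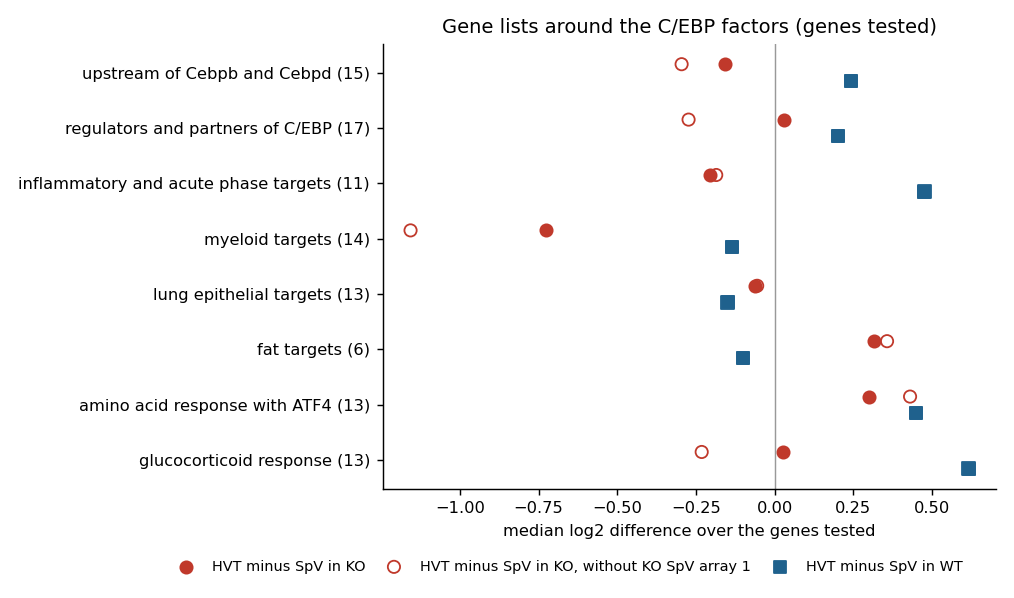
Median log2 difference with ventilation (horizontal axis) over the tested genes of each list around the C/EBP factors, with the number tested in brackets; red is KO with all arrays, open red KO without KO SpV array 1, and blue WT. The myeloid targets have the lowest median in KO, at -0.72 with all arrays, and the glucocorticoid response the highest in WT, at 0.62.

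The genes whose log2 signal followed each member most closely over the 12 arrays were ranked by Pearson's r, as a description. For Cebpa they were Srsf9 (r = 0.95), Ctsa (0.92) and Adgra3 (0.91). Srsf9, a splicing factor, averaged 979.1 ± 83.5 in KO HVT, 1381.9 ± 46.2 in KO SpV, 1151.7 ± 44.7 in WT HVT and 1330.6 ± 28.4 in WT SpV, the order of groups seen for Cebpa. For Cebpb they were Cdr2 (0.95), Pitpna (0.95) and Ptpn12 (0.94). For Cebpd they were Jdp2 (0.91), a repressor of AP-1, Klf4 (0.90), a Krüppel-like factor, and Senp2 (0.89). Klf4 averaged 1533.0 ± 331.4 in KO HVT, 1754.0 ± 954.5 in KO SpV, 3807.5 ± 750.4 in WT HVT and 2589.4 ± 1058.8 in WT SpV, and its KO HVT arrays were all below its WT HVT arrays, as for Cebpd and 12.9% of all genes. For Cebpg they were Slc4a2 (0.91), Map11 (0.86) and Trp53rka (0.85).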

How the data were processed

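Total RNA from 12 lung samples was hybridised to Affymetrix arrays. The deposited values are linear probe set intensity, from GCOS 1.4 per the submitters' processing notes. The design text gives a scaling to an average of 500, which the deposited values do not show. Here each array was scaled to a 2% trimmed mean of 500 and quantile normalized. A pseudocount of 16 was added before log2, 64 AFFX controls were dropped, and probe sets reaching a scaled 100 on at least 3 arrays were kept (15855, with all 8 C/EBP probe sets at 100 or more on all 12 arrays). The annotation names 1 gene for 20393 probe sets, several for 691 and none for 1606, controls included; 20364 matched RefSeq (GRCm38.p6) by Entrez identifier, and 0 symbols changed. Each of 9333 genes is represented by its kept probe set of highest mean log2 signal, with RefSeq gene coordinates.

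A linear model of the 4 group means was fitted with limma 3.58.1 (R 4.3.3, eBayes with trend, 8 residual and 4.44 prior degrees of freedom) on the 12 arrays, for 7 contrasts, two-sided, with Benjamini-Hochberg adjustment over all genes and calls at an adjusted p under 0.05. The median SE of a difference between 2 groups was 0.232, and precision is limited by the number of arrays. No label says that arrays of a group came from separate mice, so the p-values measure only variation among these arrays, which could be technical. Named genes were Nfe2l2, the C/EBP genes and Ddit3, the 3 genes most correlated with each member, and from each list up to 3 called members or the 2 of smallest p; not all are printed. The members, lists and tests were chosen with earlier results of these data known. Fits were tested on simulated data. Alternatives covered scaling, pseudocount, filter, probe sets, array weights, the actin ratio, the replicate block and left-out arrays; those without the first SpV array of each genotype, with brightness as a covariate, or with lists without KO SpV array 1 were added after seeing the data.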

Additional observations from a re-analysis of the deposited data

How the results depend on the processing

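With all arrays 0 of the 4 genes were called, and 80 of 84 fits without 1 array and 82 of 102 other settings gave that count too. Leaving out 1 array gave counts from 0 to 1 for ventilation in KO, KO HVT against WT HVT, the difference between ventilation effects and ventilation averaged over genotypes; each call of 1 came without KO SpV array 1. The count was 2 for ventilation in KO with array weights (Cebpa and Cebpd). It was 1 for ventilation in KO with the actin ratio or brightness as a covariate and without the first SpV array of each genotype (Cebpa). It was 1 for KO HVT against WT HVT with array weights, with only the 2 groups compared, with the replicate block and without the first SpV array of each genotype (Cebpd), and 1 with array weights for the difference between effects (Cebpd). For ventilation averaged over genotypes it was 1 (Cebpa) with trimmed-mean scaling alone, pseudocounts of 1 and 64, a filter at 200, every probe set, array weights, either covariate and without the first SpV array of each genotype. For genotype averaged over breathing it was 1 (Cebpd) with array weights and with the replicate block. Array weights, whose fit did not fully converge, gave KO SpV array 1 a weight of 0.126 and called 202 to 1594 genes a contrast, against 0 to 348 unweighted. For ventilation in KO they called 1530 genes, against 0. Genes called in all were not counted with either covariate, the 2 groups alone or trimmed-mean scaling. Nor were they counted with other pseudocounts, the filter at 200 or without the first SpV arrays. Member calls there have no share of all genes beside them. The cause of the changes in the count of members was not tested.

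The labels do not say that the replicate numbers pair the arrays, and the main fit did not pair them. Same-numbered arrays of different groups had residual correlations from -0.17 to 0.39, with a median of 0.018 and 6 of 18 over 0.1. For arrays of different numbers the median was -0.016, with 6 of 36 over 0.1. These values do not settle whether the numbers pair the arrays. The replicate block gave Cebpd an adjusted p of 0.0473 in KO HVT against WT HVT and 0.0454 averaged over breathing, and called 510 genes in that average, against 348 without the block.

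Signs changed for differences that were not called in the fit to all arrays, none larger there than 0.26. Leaving out 1 array moved Cebpg from -0.22 to 0.22 with ventilation in WT, from -0.30 to 0.22 in KO HVT against WT HVT and from -0.0086 to 0.24 in averaged ventilation. It moved Cebpb from -0.41 to 0.11 with ventilation in KO. For KO SpV against WT SpV the ranges were -0.027 to 0.10 (Cebpa), -0.19 to 0.33 (Cebpb) and -0.27 to 0.28 (Cebpd). With ventilation in WT, Cebpg was 0.0097 with equal medians, 0.075 with array weights and 0.026 with the actin covariate. With ventilation in KO, Cebpb was 0.015 with trimmed-mean scaling alone and 0.011 with equal medians. For KO SpV against WT SpV, equal medians gave -0.082 for Cebpa and -0.083 for Cebpb, and Cebpd was 0.17 with array weights, 0.0058 with the actin covariate, 0.15 with brightness and 0.13 without the first SpV arrays, which gave -0.012 in averaged ventilation.

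Without scaling the median gene shifted by -0.28 with ventilation in KO and 0.01 in WT, by -0.77 in HVT and -0.47 in SpV between genotypes, by -0.31 in the difference between effects and by -0.13 and -0.61 in the averages. Unscaled, Cebpg was -0.098 with ventilation in KO, 0.036 in WT, -0.13 in the difference between effects and -0.031 in averaged ventilation, and Cebpa and Cebpb were -0.48 each at rest between genotypes. Relative to the median gene, Cebpg with ventilation was 0.19 in KO and 0.03 in WT, Cebpa at rest -0.01, and Cebpd in KO HVT against WT HVT -1.14.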
